A study of Mus musculus with 18 samples.

Results

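The SR proteins and the heterogeneous nuclear ribonucleoproteins (hnRNPs) are the main families of RNA-binding proteins that set which exons of a transcript are joined. Every protein-coding gene of the GENCODE mouse annotation (release 21, genome build mm10) with a symbol starting in Srsf or Hnrnp was taken, which gave 31 of 21951 protein-coding genes, 11 of them Srsf and 20 Hnrnp. Their N6-methyladenosine (m6A) peaks were read from the deposited peak lists of a mouse m6A-seq study, in which RNA is enriched with an antibody to m6A, sequenced, and compared with the input RNA. A gene was counted as having a peak where a peak overlapped an exon of any of its annotated transcripts by at least 1 bp.

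The groups were as follows. Embryoid bodies (EBs) gave 3 libraries, A, B and C, and were made from BVSC stem cells by growth in serum medium on non-adherent plates for 8 to 21 days; the day of each library is not in the labels. Mouse embryonic fibroblasts (MEFs), grown from E13.5 embryos, were represented by 1 final list from 2 cultures. Embryonic stem cells (ESCs) labelled Mettl3-KO, for the catalytic subunit of the m6A methyltransferase, gave 1 library, and their line of origin and number of clones are not in the labels. Their reference was the BVSC ESC line, grown in serum-free medium with leukaemia inhibitory factor and a pair of kinase inhibitors (2i), with 3 libraries called biological replicates (A, B and C). All samples carried the strain label C57BL/6, and a final peak list was also deposited for EBs and for ESCs.

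The library lists held 12364 to 21509 peaks in EBs, 2043 in the Mettl3-KO ESCs and 10515 to 19816 in ESCs. They give positions without a height or score, so the depth behind a peak is unknown, and a peak needs both expression and methylation of the RNA. In bulk samples, fewer cells of a type and less RNA per cell cannot be told apart. Mettl3 itself had 0 peaks in all 7 libraries, so the lists do not check the knockout label. Of the 6 ESC marker genes, 6 had a peak in all 3 EB libraries and 5 in all 3 ESC libraries, and of the 6 EB marker genes, 3 had one in all 3 EB libraries (Gata4, Sox17 and Foxa2) and 2 in all 3 ESC libraries (Gata4 and Sox17). Of the 6 MEF marker genes, 3 were in the final MEF list (Thy1, Twist1 and Pdgfrb), 3 in the final EB list and 2 in the final ESC list. Col1a1 and Col1a2 were not in the final MEF list.

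SR proteins bind exonic enhancers through RNA recognition motifs and recruit the spliceosome through a domain rich in arginine and serine. The hnRNPs coat nascent RNA, and many of them repress exons or act on mRNA stability and export. Genes of both families are known to control their own mRNA through unproductive splicing, and in human cells the hnRNPA2B1 and hnRNPC proteins have been tied to the recognition of m6A or of the RNA structures it opens. The modification is written on adenosines within the DRACH motif, of which GGAC is a common core, and is known to be most frequent in long exons and around stop codons.

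The sequences under the peaks found in all 6 EB and ESC libraries are shown first, from the GRCm38.p6 assembly (mm10), 5′ to 3′ on the strand of the gene. The capitals mark GGAC, searched on the transcript strand alone. Hnrnpf and Hnrnph2 encode closely related proteins that bind runs of guanines, and both had a coding peak over the same codons, counted from the start codon. The stretch shared by all 6 libraries is 163 bp long in Hnrnpf, over codons 57 to 111, and 242 bp long in Hnrnph2, over codons 31 to 111. The whole codons 57 to 111, common to both, are shown. They lie at chr6:117923925-117924089 (plus strand) in Hnrnpf and at chrX:134605076-134605240 (plus strand) in Hnrnph2, within exons of 1912 and 3841 nt. Hnrnph1, another gene of this group, is shown for the same 165 nt, which in its transcript are spliced together between 50379539 and 50379900 on chromosome 11 from exons of 144 and 156 nt.
Hnrnpf: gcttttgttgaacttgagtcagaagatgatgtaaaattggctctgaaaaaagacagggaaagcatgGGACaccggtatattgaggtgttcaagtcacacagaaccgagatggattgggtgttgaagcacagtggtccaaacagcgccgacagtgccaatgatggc
Hnrnph2: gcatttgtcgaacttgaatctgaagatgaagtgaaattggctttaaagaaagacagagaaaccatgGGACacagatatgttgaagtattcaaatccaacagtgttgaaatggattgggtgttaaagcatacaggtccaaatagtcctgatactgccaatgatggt
Hnrnph1: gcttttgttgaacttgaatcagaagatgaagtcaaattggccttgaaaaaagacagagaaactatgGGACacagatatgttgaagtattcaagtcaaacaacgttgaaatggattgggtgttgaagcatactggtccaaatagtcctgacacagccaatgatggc

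The 3 sequences each hold 1 GGAC, which starts at codon 79 in all 3. Hnrnpf and Hnrnph2 are identical at 130 of the 165 bases (78.8%), Hnrnpf and Hnrnph1 at 137, and Hnrnph2 and Hnrnph1 at 148 (89.7%). Peaks lay over these codons in 6 of 6 EB and ESC libraries in Hnrnpf and Hnrnph2, against 0 of 6 in Hnrnph1, although Hnrnph1 had a peak elsewhere in all 6. In EB C that peak covered only 23 exonic bp of Hnrnph1. The Hnrnpf and Hnrnph2 transcripts have 3 exons each, and the Hnrnph1 transcript has 15.

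The next sequences carry peaks centred outside the 200 nt at transcript starts, from the stretch shared by all 6 libraries. Hnrnpa0, which encodes an hnRNP of the A/B group that binds AU-rich elements, has 1 exon of 2678 nt, and its coding peak shares chr13:58128074-58128309 (minus strand, codons 2 to 80, and 247 bp from the nearest annotated 5′ end) between all 6 libraries. Hnrnpm encodes a protein that binds GU-rich RNA, and its coding peak shares chr17:33650142-33650343 (minus strand, codons 409 to 476, in an exon of 803 nt). Hnrnpl encodes a protein that binds CA repeats, and its peak shares chr7:28815941-28816164 (plus strand), within intron 7 of its main transcript.
Hnrnpa0: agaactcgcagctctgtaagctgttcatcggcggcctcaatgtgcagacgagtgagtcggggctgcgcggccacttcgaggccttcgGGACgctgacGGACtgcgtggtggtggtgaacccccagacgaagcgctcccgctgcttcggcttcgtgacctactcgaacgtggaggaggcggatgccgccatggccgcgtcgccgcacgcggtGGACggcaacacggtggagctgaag
Hnrnpm: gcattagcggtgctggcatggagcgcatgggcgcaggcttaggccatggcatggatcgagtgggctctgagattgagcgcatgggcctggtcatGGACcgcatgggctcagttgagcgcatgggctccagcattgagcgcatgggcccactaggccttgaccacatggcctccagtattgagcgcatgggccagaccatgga
Hnrnpl: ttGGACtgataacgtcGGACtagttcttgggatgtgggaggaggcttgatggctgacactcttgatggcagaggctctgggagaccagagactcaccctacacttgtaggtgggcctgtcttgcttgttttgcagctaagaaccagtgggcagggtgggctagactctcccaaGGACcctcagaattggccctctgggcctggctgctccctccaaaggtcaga

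Around GGAC in the peaks at transcript starts, 30 bases are shown for the 4 genes with a single start region found in all 6 libraries. The regions of Srsf2, Srsf6 and Hnrnpa2b1 also had a knockout peak, and that of Hnrnpdl had none. Srsf2 (chr11:116853004-116853033, minus strand) encodes an SR protein that marks nuclear speckles, Srsf6 (chr2:162931637-162931666, plus strand) an SR protein with a pair of RNA recognition motifs, Hnrnpa2b1 (chr6:51469746-51469775, minus strand) an hnRNP that also sorts RNAs into vesicles, and Hnrnpdl (chr5:100039310-100039339, minus strand) a relative of the AU-rich element protein encoded by Hnrnpd.
Srsf2: tccctacccacgaGGACtgtagctaccgag
Srsf6: ccagcctcccggaGGACacccgtgggtcac
Hnrnpa2b1: ccccacagcgccaGGACgagtcccgtgcgc
Hnrnpdl: gctctgcactaggGGACtgagggcgcagca

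GGAC lay within 50 nt of the peak centre for 48.5% ± 4.47 of their peaks in EBs and 47.6% ± 4.12 in ESCs (SD, n = 3 each), where peaks of all protein-coding genes held it in 54.4% ± 3.45 in EBs and 56.0% ± 2.45 in ESCs. Near transcript starts the order of the means was the other one, with 50.6% ± 9.24 in EBs and 53.4% ± 5.10 in ESCs for the 31 genes, and 48.0% ± 0.997 in EBs and 48.4% ± 2.26 in ESCs for all genes. In EB B the members' share over all places was also slightly the higher, at 52.9% against 52.0%. DRACH lay within 50 nt of the centre in 63.6%, 79.4% and 68.0% of member peaks in EB A, B and C. In ESC A, B and C its share was 76.2%, 71.1% and 75.0%. Peaks of all protein-coding genes held it more often in each library. Their shares were 90.4%, 88.6% and 91.4% in EBs and 92.0%, 89.7% and 91.2% in ESCs. Beyond the start the members' DRACH share was likewise lower in each EB and ESC library, at 66.7% to 86.7% against 92.5% to 95.2%. These member shares rest on 14 to 20 peaks per library, and a recurrent region enters in several libraries. All motif shares leave out peaks centred within 50 nt of a transcript end. Over all places, 21 to 38 member peaks per EB or ESC library were left. No GGAC was found in the shared stretches of the recurrent peaks of Srsf1, Srsf4, Srsf5 and Hnrnpul1 or of the start codon peak of Hnrnpm.

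Peaks were common in both families. At least 1 of the 6 EB and ESC libraries had a peak in 29 of the 31 genes, against 61.4% of all protein-coding genes, and all 6 had one in 16 of the 31, against 19.7%. The 16 were Srsf1, Srsf2, Srsf4, Srsf5, Srsf6, Hnrnpa0, Hnrnpa2b1, Hnrnpdl, Hnrnpf, Hnrnph1, Hnrnph2, Hnrnpk, Hnrnpl, Hnrnpm, Hnrnpr and Hnrnpul1. They made up 5 of the 11 SR genes and 11 of the 20 hnRNP genes. Hnrnpa1, which encodes an abundant repressor of exons, and Hnrnpd, which encodes the AU-rich element protein AUF1, had no peak in any library.

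The other 13 genes with a peak were found less regularly. Srsf7, Srsf9, Hnrnpab, Hnrnpc and Hnrnph3 had peaks in 3 of 3 EB libraries, in the Mettl3-KO library and in 2 of 3 ESC libraries, and Srsf10, which encodes a splicing repressor of the SR family, in 3 EB and 2 ESC libraries without the knockout. Srsf11 had peaks in 2 EB and 2 ESC libraries. Hnrnpll, Hnrnpu and Hnrnpul2 had them in 2 EB and 1 ESC libraries, and Hnrnpu encodes the nuclear scaffold protein SAF-A. Hnrnpa3 had peaks in 1 EB library, the knockout library and 2 ESC libraries. Srsf3 had a peak in ESC B alone. Srsf12, which encodes a protein that opposes other SR proteins, had a peak of 150 bp in EB A and peaks of 149 and 93 bp in EB B, and none in EB C, the knockout or any ESC library.

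**Figure D1:**
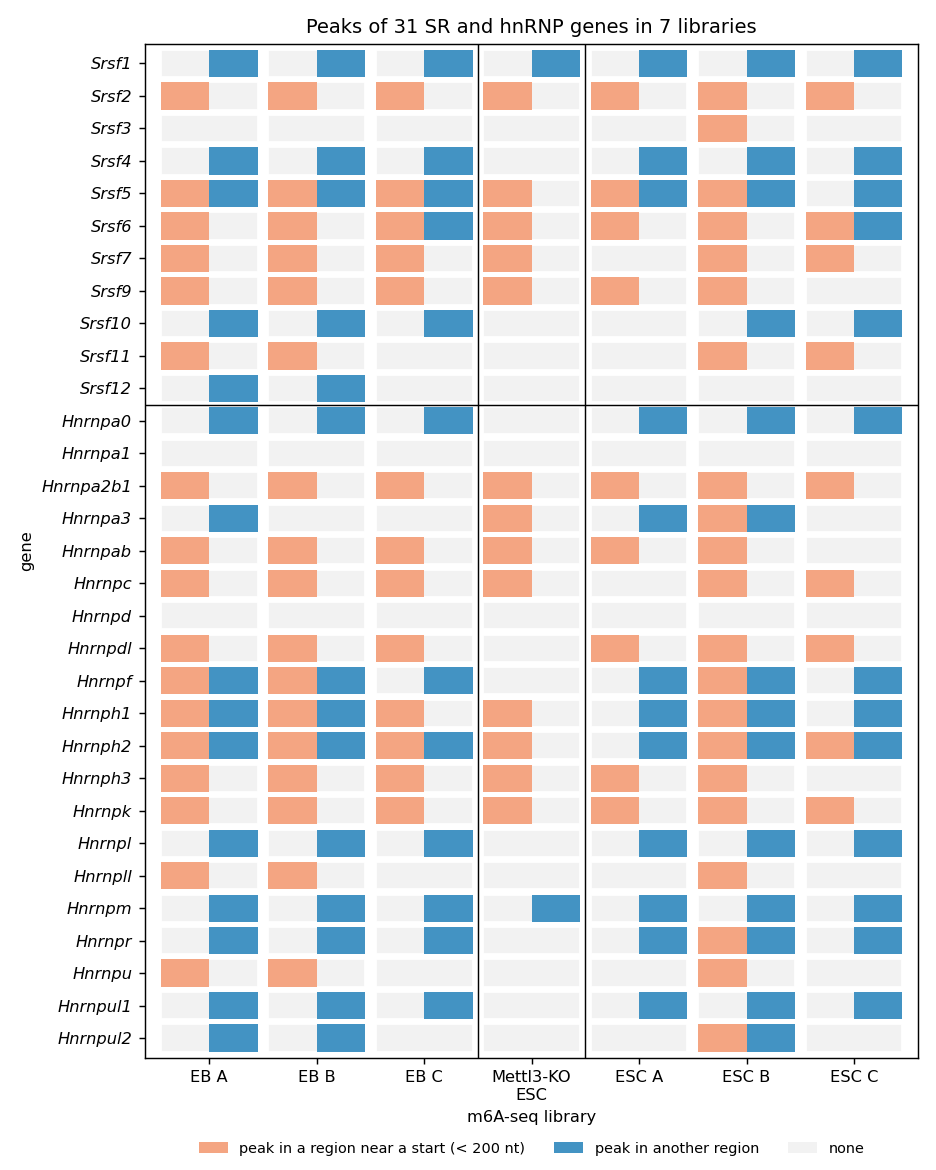
Each row is 1 of the 31 genes and each column 1 library (EB A to C, Mettl3-KO ESC, ESC A to C); the left part of a cell is filled where the gene had a peak in a region centred under 200 nt from a transcript start and the right part where it had a peak in another region. The knockout column is filled almost only on the left, in 15 genes in all, with right-hand peaks in Srsf1 and Hnrnpm.

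The peaks of the 31 genes merged into 51 regions, and by distance along a coding transcript these divided evenly between its start and the rest. Of the 51 regions, 26 were under 200 nt from the start of a coding transcript and 25 were not. Only 17 were beyond that start and also over 200 bp from any annotated 5′ end of the gene. By library, the share of located peaks near a start was 51.4%, 47.4% and 51.7% in EB A, B and C, 83.3% in the Mettl3-KO library, and 39.1%, 60.5% and 42.3% in ESC A, B and C. The mean was 50.1% ± 2.41 in EBs and 47.3% ± 11.5 in ESCs (SD, n = 3 each), against 17.7% ± 2.40 in EBs and 16.2% ± 6.17 in ESCs for all protein-coding genes. The share was above that of all genes in each of the 7 libraries, and least so in the knockout, where starts made up 79.0% of the located peaks of all genes. Within 200 bp of any annotated 5′ end lay 66.3% ± 1.89 of member peaks in EBs and 60.2% ± 9.90 in ESCs. For all protein-coding genes these shares were 23.5% ± 2.97 in EBs and 21.6% ± 6.21 in ESCs. Peaks within 200 nt of a stop codon made up 15.5% ± 1.88 in EBs and 16.9% ± 2.68 in ESCs, against 22.5% ± 2.03 in EBs and 24.8% ± 3.47 in ESCs for all genes.

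Among the genes with a peak in all 6 libraries, 4 of the 16 had no peak beyond the start in any of them, against 2.73% of all such genes. These were Srsf2, Hnrnpa2b1, Hnrnpdl and Hnrnpk. A peak beyond the start was present in every library in 9 of the 16 (Srsf1, Srsf4, Srsf5, Hnrnpa0, Hnrnpf, Hnrnph2, Hnrnpl, Hnrnpm and Hnrnpr), against 91.5% of all such genes. Beyond the start, the peaks lay in exons of 400 nt or longer in 94.8% ± 5.01 of cases in EBs and 93.4% ± 0.636 in ESCs, and in 89.0% ± 3.88 in EBs and 93.2% ± 1.48 in ESCs for all genes, so that in ESCs the shares differed by less than the spread between libraries.

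**Figure D2:**
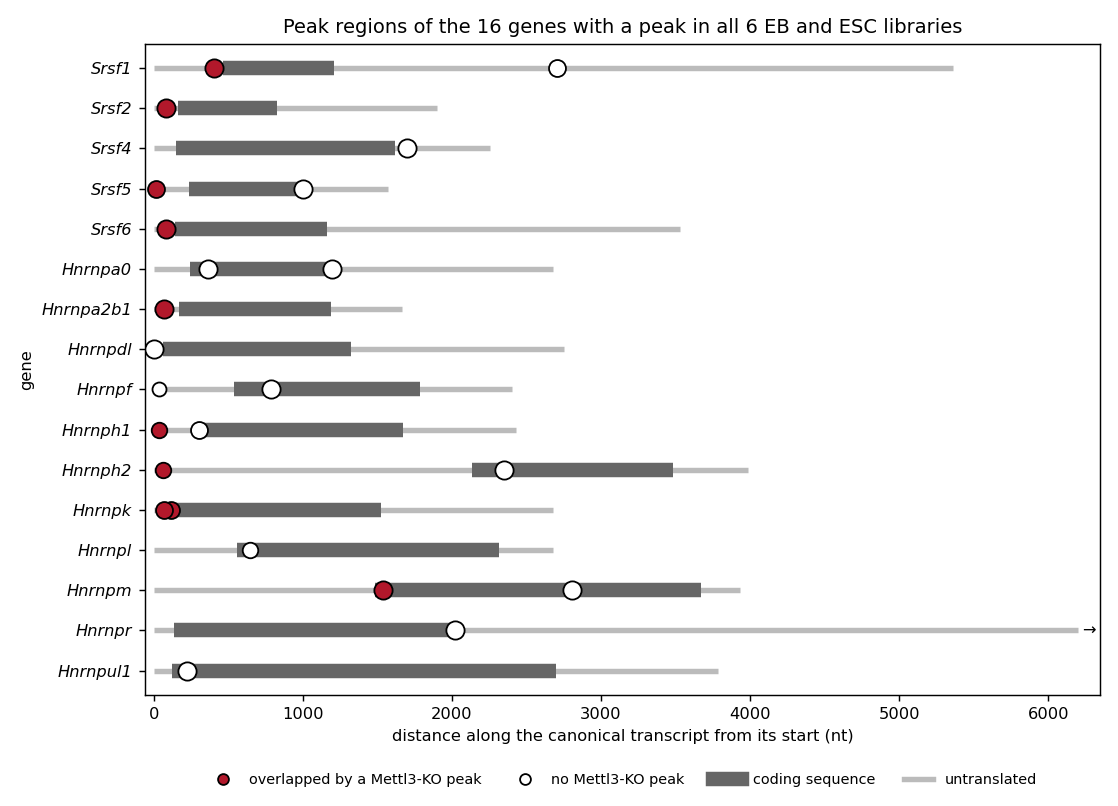
The x axis is the distance in nt along the canonical transcript, the thick bar is the coding sequence, and each circle is the centre of a peak region found in at least 3 of the 6 EB and ESC libraries, larger where more libraries had it and filled red where a Mettl3-KO peak overlapped it. The intronic region of Hnrnpl is on no coding transcript and is not drawn, and the Hnrnpr transcript runs on past the axis.

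In the SR family, the start peaks recurred in Srsf2 and Srsf6. The Srsf2 region (chr11:116852764-116853108) was 232, 314 and 232 bp wide in EB A, B and C, 151 bp in the Mettl3-KO library, and 296, 200 and 135 bp in ESC A, B and C. The Srsf6 region (chr2:162931507-162931728) was 110, 127 and 142 bp in EBs, 140 bp in the knockout, and 222, 140 and 113 bp in ESCs. The widths of EBs and ESCs overlapped in both genes, and the knockout peaks were as wide as some of the others. In 3 libraries the Srsf2 peak also overlapped an exon of Mfsd11 on the opposite strand, and the lists do not give the strand.

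Srsf1, which encodes the founding SR protein and a known oncogene product, had its recurrent region (chr11:88047688-88047886) in the 5′ UTR, centred 401 nt from the start of the canonical transcript and over an annotated 5′ end of another of its transcripts. It measured 112, 124 and 130 bp in EBs, 88 bp in the knockout, and 182, 155 and 124 bp in ESCs. A further region in its 3′ UTR, 1495 nt past the coding sequence (chr11:88050982-88051326), measured 151, 289 and 0 bp in EBs, 0 bp in the knockout, and 256, 297 and 276 bp in ESCs. EB C thus lacked a peak that all 3 ESC libraries had.

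Srsf4 and Srsf5, which encode SR proteins with a pair of RNA recognition motifs, had their recurrent peaks at the stop codon. The Srsf4 region (chr4:131901048-131901542), centred 78 nt past the end of the coding sequence, was 424, 450 and 493 bp wide in EBs, absent from the knockout, and 155, 141 and 462 bp wide in ESCs. The Srsf4 values of ESC A and ESC B lay far below all EB values, and ESC C lay among them. The Srsf5 region (chr12:80949853-80950043) was 154, 115 and 172 bp in EBs, absent from the knockout, and 148, 142 and 185 bp in ESCs. Srsf5 also had a start region (chr12:80945520-80945692) of 118, 105 and 146 bp in EBs, 122 bp in the knockout, and 168, 121 and 0 bp in ESCs. A non-coding transcript on the opposite strand, Gm12992, shares exonic bases with the Srsf4 region in all 6 libraries. The stop codon regions of Srsf10 and Srsf12, found in 2 EB and 2 ESC libraries and in 2 EB libraries alone, were likewise absent from the knockout.

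Among the hnRNP genes, Hnrnpa2b1 and Hnrnpk had start peaks only. The Hnrnpa2b1 region (chr6:51469658-51469889) was 178, 161 and 183 bp wide in EBs, 151 bp in the knockout, and 194, 195 and 169 bp in ESCs. Hnrnpk, which encodes a protein that binds C-rich RNA, had a pair of start regions, each in 3 EB libraries, the knockout and 2 ESC libraries. The downstream region (chr13:58400343-58400515), over codons 1 to 9, was 121, 136 and 146 bp in EBs, 99 bp in the knockout, and 151, 122 and 0 bp in ESCs. The upstream region (chr13:58402354-58402523) was 135, 142 and 133 bp in EBs, 108 bp in the knockout, and 0, 170 and 148 bp in ESCs. Peaks of Hnrnpk overlapped an exon of Rmi1 on the opposite strand in 6 libraries.

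The coding peaks of Hnrnpf and Hnrnph2, whose sequences stand above, had no counterpart in the knockout. The Hnrnpf region was 306, 335 and 265 bp wide in EBs and 327, 174 and 190 bp in ESCs. The Hnrnph2 region was 409, 507 and 438 bp in EBs and 306, 281 and 427 bp in ESCs. The group ranges overlapped in both genes. Hnrnpf also had start regions without a knockout peak, of 107, 120 and 0 bp in EBs and 0, 193 and 0 bp in ESCs (chr6:117906809-117907001) and of 104 bp in ESC B alone (chr6:117917012-117917115). Hnrnph2 had one of 125 bp in EB A alone (chrX:134602672-134602796). Hnrnph2 and Hnrnph1 each had a start region with a knockout peak. That of Hnrnph2 (chrX:134601238-134601402) was 0, 107 and 126 bp in EBs, 77 bp in the knockout, and 0, 125 and 108 bp in ESCs. That of Hnrnph1 (chr11:50377752-50377900) was 122, 117 and 121 bp in EBs, 94 bp in the knockout, and 0, 145 and 0 bp in ESCs. Only 23 bp of this peak in EB C and 37 bp in the knockout lay on annotated exons of Hnrnph1. Hnrnph1 also had a region over codons 1 to 11 (chr11:50378214-50378448) of 101, 106 and 0 bp in EBs and 235, 132 and 120 bp in ESCs, without a knockout peak. EB C thus had only the upstream peak of Hnrnph1, and ESC A and ESC C only the downstream one.

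Hnrnpa0 had the most exonic bases under peaks of the 31 genes, in the mean over the 6 libraries, from its coding and its stop codon regions together. They covered 728, 1038 and 903 exonic bp in EBs, 0 bp in the Mettl3-KO library, and 870, 821 and 593 bp in ESCs. The stop codon region (chr13:58127156-58127717) was in the final lists of all 3 cell types, and the coding region in those of EBs and ESCs.

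Hnrnpm had a coding region far from the start and one at the start codon. The first (chr17:33649739-33650414) was 637, 676 and 652 bp wide in EBs, absent from the knockout, and 508, 458 and 334 bp in ESCs, so every EB value was above every ESC value. The second (chr17:33685233-33685430) was 142, 137 and 159 bp in EBs, 120 bp in the knockout, and 198, 158 and 121 bp in ESCs. It lies 5 bp from an annotated 5′ end, although the canonical transcript begins 1481 nt upstream of the coding sequence. Its EB and ESC widths overlapped, unlike those of the coding region.

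The recurrent Hnrnpl peak lay outside every coding transcript. Its region (chr7:28815879-28816230) was 295, 321 and 278 bp wide in EBs, absent from the knockout, and 297, 317 and 227 bp in ESCs. It lies within intron 7, an intron of 3108 nt, and is covered by exons of 2 annotated transcripts of the retained intron class. The stretch shared by the 6 libraries holds 3 GGAC and no CACA, and the intron as a whole holds 24 CACA. Only 0.155% of all protein-coding genes, 34 of them, had a peak over exons of non-coding isoforms alone in all 6 libraries, and Hnrnpl was the only member of either family among them. In human cells hnRNP L is known to act on the splicing of its own transcript. A coding region of Hnrnpl over codons 13 to 44 (chr7:28810911-28811068) was 95, 142 and 146 bp wide in EBs, absent from the knockout, and 0, 156 and 0 bp in ESCs. This coding region lies 8 bp from an annotated 5′ end. The final MEF list held a row over the intronic region and a second row further into the same intron (chr7:28816484-28816769).

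Hnrnpdl differed from Srsf2, Srsf6 and Hnrnpa2b1, the other genes with a single start region in all 6 libraries, in that it had no knockout peak. Its region (chr5:100039053-100039793) was 459, 580 and 485 bp wide in EBs, absent from the knockout, and 741, 503 and 472 bp in ESCs. The stretch shared by the 6 libraries is 442 bp long (chr5:100039153-100039594), holds 7 GGAC, and reaches upstream of the canonical start into the first exon of another annotated transcript. Hnrnpr, which encodes an hnRNP that binds neuronal and viral RNAs, had a region at the stop codon (chr4:136339688-136340337) of 364, 275 and 221 bp in EBs and 162, 195 and 553 bp in ESCs, with no base shared by all 6. Hnrnpr also had peaks of 106 bp in ESC B alone (chr4:136310959-136311064) and of 93 bp in EB B alone (chr4:136336201-136336293). Hnrnpul1, which encodes a protein of the hnRNP U group, had a coding region (chr7:25754344-25754720, codons 22 to 44 in the shared stretch) of 347, 374 and 217 bp in EBs and 355, 126 and 110 bp in ESCs. Hnrnpr and Hnrnpul1 had no knockout peak.

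The remaining genes with a knockout peak had it at the start. Srsf7, whose protein binds RNA through a zinc knuckle and serves mRNA export, had a region (chr17:80207164-80207300) of 110, 112 and 137 bp in EBs, 90 bp in the knockout, and 0, 125 and 117 bp in ESCs. Srsf9, a short SR protein gene, had one (chr5:115327176-115327365) of 104, 181 and 139 bp in EBs, 120 bp in the knockout, and 180, 168 and 0 bp in ESCs. ESC A lacked the first and ESC C the second, so neither reached all 6 libraries. Srsf7 had a further region over codons 10 to 18 (chr17:80205979-80206104), 132 nt along its transcript but 753 bp from any annotated 5′ end. It was 77 bp wide in the knockout and 102 bp in ESC B, and absent from the other libraries.

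Hnrnpc encodes a protein that binds uridine tracts, and its start region (chr14:52103851-52104033) was 120, 99 and 160 bp wide in EBs, 88 bp in the knockout, and 0, 183 and 137 bp in ESCs. Hnrnpab, of the A/B group, had a start region (chr11:51606568-51606842) of 139, 262 and 150 bp in EBs, 141 bp in the knockout, and 235, 154 and 0 bp in ESCs. Hnrnph3, another relative of Hnrnph1, had one (chr10:63023720-63023894) of 109, 134 and 160 bp in EBs, 94 bp in the knockout, and 142, 110 and 0 bp in ESCs. In Hnrnpa3, also of the A/B group, the knockout peak (77 bp) shared its start region (chr2:75659290-75659413) with ESC B alone (124 bp), and a region near the stop codon (chr2:75665477-75665635) was found in ESC A and ESC B, at 142 and 111 bp. The missing ESC library was A for Hnrnpc and C for Hnrnpab and Hnrnph3. Hnrnpc also had a region 112 nt along its transcript and 401 bp from any annotated 5′ end (chr14:52098017-52098149), without a knockout peak. It was 112, 0 and 130 bp wide in EBs and 0, 0 and 129 bp in ESCs.

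Of the start regions without a knockout peak, only that of Hnrnpdl was found in all 6 EB and ESC libraries. Srsf11 had one (chr3:158036477-158036625) in EB A, EB B, ESC B and ESC C, at 95, 119, 111 and 109 bp. Hnrnpu (chr1:178337622-178337768) and Hnrnpll (chr17:80061995-80062209), a relative of Hnrnpl known for the splicing of Ptprc in T cells, had theirs in EB A, EB B and ESC B, at 133, 129 and 136 bp in Hnrnpu and 113, 207 and 114 bp in Hnrnpll. Hnrnpul2 had a coding region in the same 3 libraries (chr19:8820297-8820626), of 276, 185 and 251 bp. EB B and ESC B have the longest lists of their groups, with 21509 and 19816 peaks.

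The comparison of Mettl3-KO with reference ESCs asks which peaks are found without the methyltransferase. There is 1 knockout library, so it has no replicate check, and its list is the shortest. A knockout peak was present in 15 of the 31 genes (Srsf1, Srsf2, Srsf5, Srsf6, Srsf7, Srsf9, Hnrnpa2b1, Hnrnpa3, Hnrnpab, Hnrnpc, Hnrnph1, Hnrnph2, Hnrnph3, Hnrnpk and Hnrnpm), against 8.57% of all protein-coding genes. Where every ESC library had a peak in the gene, 9 of 16 members also had a knockout peak, against 20.8% of all such genes. Among genes with a start peak in all 3 ESC libraries, 4 of 5 members had a knockout peak at the start, against 59.6%. Hnrnpdl was the exception. Among genes with a peak beyond the start in all 3 ESC libraries, 2 of 10 members (Srsf1 and Hnrnpm) had a knockout peak beyond the start, against 4.09%.

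Peak by peak, the place in the transcript went with the overlap. Knockout peaks overlapped 88.9%, 57.7% and 63.6% of the start peaks of the 31 genes in ESC A, B and C (30 of 46 peaks, mean 70.1% ± 16.6), against 35.3% ± 9.61 of start peaks of all genes (SD, n = 3). Beyond the start they overlapped 6 of 46 peaks (13.1% ± 1.27), against 1.66% ± 0.483 of those of all genes, and the 6 were the Srsf1 and Hnrnpm regions at annotated 5′ ends. Of the ESC peaks both beyond the start and over 200 bp from any annotated 5′ end, knockout peaks overlapped 0 of 31 in these genes and 140 of 32281 in all genes (0.458% ± 0.105 per library). Of all ESC peaks over 200 bp from any annotated 5′ end, also those near the start along the spliced transcript, they overlapped 3 of 35 in these genes (8.57%). In all genes they overlapped 292 of 32764 such peaks (0.891%). A region found in several ESC libraries enters these counts several times. By region, 15 of 26 start regions and 3 of 25 others had a knockout peak. Besides Srsf1 and the start codon region of Hnrnpm, the 3 include a peak over codons 38 to 47 of Hnrnpm (chr17:33677290-33677522), 222 bp wide in the knockout and found otherwise in EB B alone, at 109 bp. This region lies 7863 bp from the nearest annotated 5′ end and had no ESC peak to overlap. It is the 1 of 17 regions beyond the start and over 200 bp from any annotated 5′ end that had a knockout peak. Besides those of Srsf1 and Hnrnpm, the regions beyond the start but within 200 bp of an annotated 5′ end had no knockout peak. Their distances from that end were 0 bp in Srsf10, 0 bp in Hnrnph1, 8 bp in Hnrnpl, 128 bp in Hnrnpr, 130 bp in Hnrnpul1 and 170 bp in Hnrnpul2. No region was found in the knockout alone.

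**Figure D3:**
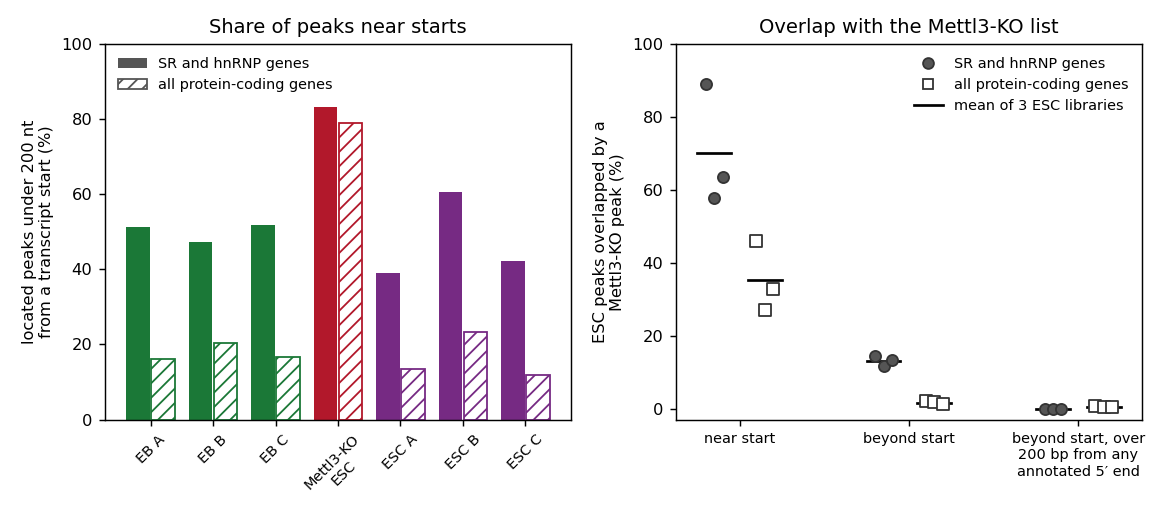
Left, the percentage of located peaks under 200 nt from a transcript start in each library, filled bars for the 31 SR and hnRNP genes and hatched bars for all protein-coding genes. Right, the percentage of ESC peaks overlapped by a Mettl3-KO peak, by place, with 1 point per ESC library. The members' points lie at 57.7% to 88.9% near starts. They lie at 0% for peaks both beyond the start and over 200 bp from any annotated 5′ end.

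The comparison of EBs with ESCs asks how peaks differ once the cells leave the ESC state. A peak was found in 28, 27 and 22 of the 31 genes in EB A, B and C, and in 20, 28 and 20 in ESC A, B and C. The means were 25.7 ± 3.21 in EBs and 22.7 ± 4.62 in ESCs (SD, n = 3 each), and the values overlapped, as did the shares of all protein-coding genes (39.5% ± 7.06 in EBs and 36.9% ± 10.2 in ESCs). No member had a peak in 3 of 3 EB and 0 of 3 ESC libraries, against 0.794% of all genes with a peak, and none had the reverse pattern, against 0.252%. The fewest members, 20, were found in ESC A, which has the shortest list of the 6, and in ESC C, whose list of 17698 peaks is longer than that of EB C.

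The exonic bases under peaks gave a graded value for each gene. A gene was called where its 3 EB values all lay above or all below its 3 ESC values, which is the most that an exact permutation test of 3 against 3 can show (two-sided p = 0.1), so no gene could pass an adjustment over the 13468 genes tested. Hnrnpm alone of the 29 members tested was called higher in EBs, against 6.53% of all genes tested, and no member was called lower, against 1.6%. Hnrnpm had 773, 823 and 802 bp under peaks in EB A, B and C (mean 799 ± 25.1), against 666, 609 and 448 bp in ESC A, B and C (mean 574 ± 113, SD, n = 3 each). The difference of 225 bp was 207 bp when only peaks of at least 150 bp were used and 207 bp when the 6 lists were brought to equal length, and in both the groups overlapped, so the call was lost. With limma on log2(covered bp + 50), 0 members passed an adjusted p of 0.05 and 0 an unadjusted one, the smallest adjusted p of a member was 0.698, and 4 of the 13468 genes passed.

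The other leading genes did not separate. The median difference, EB minus ESC, was 42 bp over the 29 members and 31 bp over all genes tested. Hnrnph2 had 480, 545 and 523 bp in EBs and 306, 377 and 522 bp in ESCs (p = 0.2, exact permutation test), and only ESC C reached the EB values. Srsf1 had 263, 413 and 130 bp in EBs and 438, 452 and 400 bp in ESCs (p = 0.2, exact permutation test), the largest mean difference in the other direction at -161 bp. Srsf4 had 424, 450 and 493 bp in EBs and 155, 141 and 462 bp in ESCs (p = 0.3, exact permutation test). Without ESC C, the EB values of Hnrnph2 and Srsf4 would all lie above, and those of Srsf1, Hnrnpa2b1, Hnrnpa3 and Hnrnph1 all below, the remaining ESC values. The genes changed with the library left out: besides Hnrnpm, Hnrnpul1 and Srsf2 would be called higher without ESC A, and Hnrnpk and Hnrnpl without ESC B. Leaving out a library makes such non-overlap easier, and the share of all genes called in this way is not given here.

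**Figure D4:**
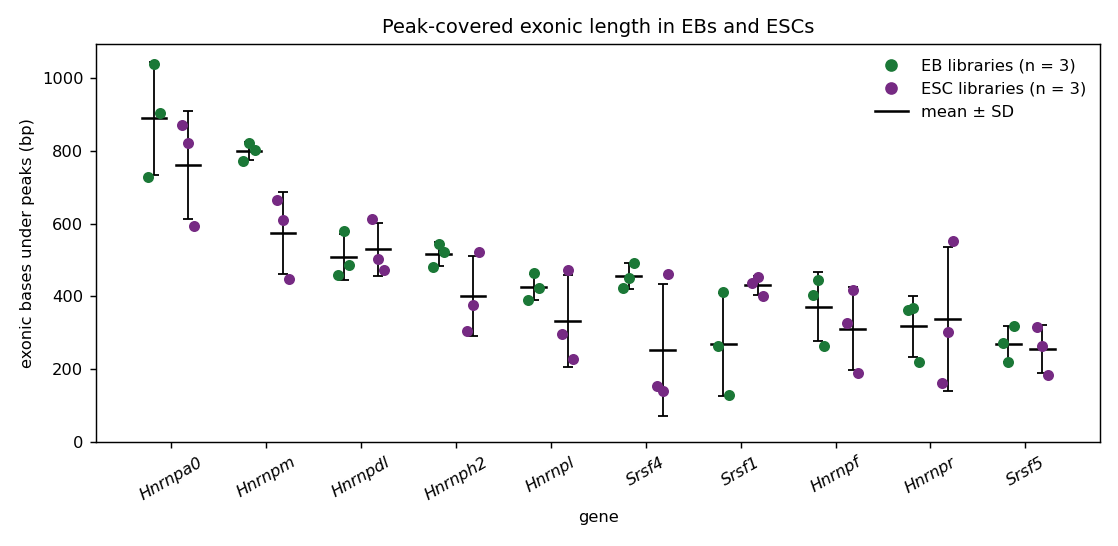
Exonic bases under peaks (bp) for the 10 genes with the most, among those with a peak in all 6 libraries; points are libraries, EBs left of ESCs, with the mean and SD (n = 3 each). The 3 EB points of Hnrnpm, at 773 to 823 bp, lie above its 3 ESC points, at 448 to 666 bp, and in the other 9 genes the points overlap.

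The final lists, 1 per cell type, hold 10167 rows for MEFs, 8384 for EBs and 10431 for ESCs, and have no replicates. The EB and ESC lists come from the same cell types as the libraries above and are not independent of them. By gene symbol, 7 of the 31 genes had a row in the MEF list, against 22.6% of all protein-coding symbols, 19 in the EB list, against 23.8%, and 22 in the ESC list, against 27.4%. The MEF share of the family, 22.6%, thus equalled that of all symbols, and the EB and ESC shares were 61.3% and 71.0%. Hnrnpdl, listed under the older symbol Hnrpdl in all 3 lists, is not in these counts.

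Including Hnrnpdl, 8 genes were in all 3 lists: Srsf4, Srsf6, Hnrnpa0, Hnrnpdl, Hnrnph2, Hnrnph3, Hnrnpl and Hnrnpm. Another 12 were in the EB and ESC lists without the MEF list: Srsf1, Srsf2, Srsf5, Srsf7, Srsf9, Srsf10, Hnrnpa2b1, Hnrnpc, Hnrnph1, Hnrnpk, Hnrnpr and Hnrnpul1. Srsf11, Hnrnpa3 and Hnrnpf were in the ESC list alone, no member was in the MEF list alone, and 8 were in none. The library lists did hold EB peaks of Hnrnpf, Srsf11 and Hnrnpa3, in 3, 2 and 1 EB libraries. Start rows made up 42.9% of the members' 7 located MEF rows, against 54.2% of 24 EB rows and 46.4% of 28 ESC rows. Over all genes the MEF list also had the lowest share of start rows, 8.39%, against 14.8% in the EB list and 15.0% in the ESC list. The sources used here do not give how the MEF list was joined from its libraries, and the part of list making in the difference was not tested.

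**Figure D5:**
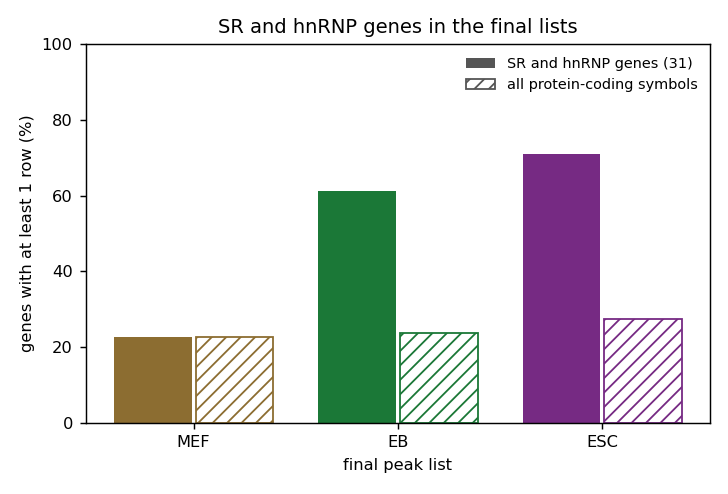
Percentage of genes with at least 1 row in the final list of each cell type, matched by gene symbol; filled bars are the 31 SR and hnRNP genes and hatched bars all protein-coding symbols. The bars are level at 22.6% for MEFs, and the filled bars stand at 61.3% for EBs and 71.0% for ESCs, against 23.8% and 27.4% for all symbols.

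A list of 42 further splicing genes (other RNA-binding regulators, SR kinases and spliceosome proteins) was set beside the families. All 6 libraries had a peak in 22 of the 42, against 19.7% of all protein-coding genes, and the knockout in 14, against 8.57%. In covered length, 38 of the 42 had a peak to test, and 6 were called higher in EBs (Srrm2, Pcbp1, Tardbp, Mbnl2, Snrnp70 and Esrp1), against 6.53% of all genes tested, and 1 lower (Tra2b), against 1.6%. Esrp1, which encodes an epithelial splicing regulator, had 174, 335 and 194 bp in EBs and 0, 0 and 0 bp in ESCs. Tra2b, an SR-like protein gene, had 102, 110 and 131 bp in EBs, 131 bp in the knockout, and 176, 139 and 157 bp in ESCs. Mbnl2, of the muscleblind family, had 1272, 1239 and 970 bp in EBs and 474, 938 and 595 bp in ESCs.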

How the data were processed

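The authors deposited m6A peak lists, whose other values are genomic positions without a score, for 7 libraries (3 EB, 1 Mettl3-KO ESC, 3 ESC), and final lists for EBs, ESCs and MEFs with a gene symbol per row. The build mm10 and the tools MACS 1.4.1, CASAVA 1.8.2 and TopHat2 2.0.10 come from the submitters' processing notes. Their order and settings, the handling of reads that match several genes, and the joining of libraries into final lists are not given. Reads of close paralogues or pseudogenes may therefore be divided between genes.

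Positions were read against the GENCODE mouse release 21 annotation and GRCm38.p6 with Python 3.11.15 and pysam 0.24.0. Exons of all transcripts of a gene were used, since the basic set lacks the Hnrnpl isoforms. A peak's place is that of the exonic base nearest its centre on the canonical transcript (APPRIS principal, then longest coding sequence) or another coding one: under 200 nt from the start first, then within 200 nt of the stop codon. A region is the union of overlapping member peaks, and its shared stretch the bases under a peak in all libraries that have it. Covered length was compared by non-overlap of 3 against 3 libraries, and with limma 3.58.1 (R 4.3.3). Both were run on simulated lengths that had no zeros and less spread than some genes here. That run does not show how often they would find changes in these data. Members, lists and tests were chosen with earlier results of these data known. Genes named with values are the members with a peak in all 6 libraries (the 10 of largest covered length in full), those called or with a knockout peak, and those that differ between final lists; of the further splicing genes, the called ones. Replicate letters did not pair the samples: correlations of same-letter deviations were -0.0305, 0.101 and 0.0428. Alternatives tried were other overlap rules, wider peaks, equal list lengths, other distances and motifs, leaving out each library and, after seeing the data, the basic gene set and leaving out start peaks.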

Additional observations from a re-analysis of the deposited data

How the results depend on the processing

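The difference of means in the number of members with a peak, 3.00 genes more in EBs, stayed above 0 in all alternatives. It lay between 0.667 with peaks of at least 150 bp and 5.67 without ESC B. Without each library in turn it was 1.67 to 5.67. Between libraries of the same letter the differences were 8, -1 and 2 genes for A, B and C, so EB B had fewer than ESC B. Members called higher in EBs, 1 as reported, numbered 0 with peaks of at least 150 bp, 0 with the widest peaks at equal list length and 0 with limma, and 1 to 3 without each library in turn (3 without ESC A, B or C or EB A, 2 without EB C). Members called lower, 0 as reported, numbered 1 (Hnrnph1) with an overlap of at least 50 bp, 1 with the peak centre in an exon, 1 without start peaks, and 0 to 4 without each library in turn (4 without ESC C, 1 without EB B and 1 without EB C). Non-overlap arises more easily with a library left out. The share of all genes called is not given for these alternatives, so their counts of members have no background. Genes with a knockout peak, 9 of 16, numbered 2 of 9 with peaks of at least 150 bp and 2 of 10 without start peaks, where fewer peaks enter by construction. The EB minus ESC share of peaks near stop codons, -1.34 percentage points, was -4.42 within 100 nt and -2.80 (without ESC B) to -0.158 (without ESC C) without each library in turn. That of peaks with GGAC, 0.856 points, was -3.73 with the wider DRACH motif and -1.52 (without ESC A) to 3.09 (without EB C) in turn, also below 0 without EB B (-1.38); the cause was not tested. With the replicate letter as a block, 4 of the 29 members were called higher, against 15.5% of all genes tested by the same rule, and 2 lower, against 3.49%; not every library correlated best with its own letter. The unknown depth limits all counts: a missing peak is not shown to be a missing modification.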
